A study of Homo sapiens with 6 samples.

Results

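The genes described here were 42 actin cytoskeleton genes, many of them targets of the transcription factor SRF and its myocardin-related (MRTF) cofactors, out of 24462 gene symbols counted in MDA-MB-231 cells, a triple-negative breast cancer line. They were chosen by name, with no threshold on their counts, and comprised 4 actins, 6 chains of myosin II, 10 tropomyosins and other thin-filament binders, 10 filament crosslinkers and focal adhesion proteins, 7 LIM domain proteins and 5 proteins that sever, cap or turn over filaments. All of them were listed in the count files and 39 had enough counts to be tested. The cells were a single line grown in serum and transiently transfected with a lipid reagent, and RNA was taken at 48 h. The first group received the negative control (NC) mimic. The second received the miR-200a mimic at 100 nM, and the third the same mimic with 30 ng of an ELK3 expression plasmid, named pcDNA3.1 Hygro(+)-ELK3 in the sample labels and pcDNA3.1-Flag-ELK3 in the protocol text. Values given as with the plasmid, or labelled plus ELK3, are those of this group. Each group had 2 libraries made with the QuantSeq 3′ kit, which reads a polyadenylated RNA near its 3′ end. The labels name no empty plasmid for the other groups, so ELK3 and the plasmid cannot be told apart, and the sources used here do not say for these libraries whether those of a group came from separate cultures, so the p-values measure only the spread between these libraries, which may be technical.

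SRF binds a short AT-rich element, the CArG box, in the promoters of its targets. MRTFs are held in the cytoplasm by actin monomers and are released when monomers are driven into filaments, after which they join SRF and switch on genes for actin, myosin, tropomyosin, vinculin, filamin and calponin. ELK1, ELK3 and ELK4 are the ternary complex factors (TCFs), the other class of SRF partners. They answer to ERK signalling, act on serum-response genes such as EGR1 and FOS, and compete with MRTFs for SRF.

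The libraries held 3055915 to 4868004 counts, of which the 42 genes took 1.62% to 1.81%. In each library 3 counts, taken as the floor, corresponded to 0.611 to 0.979 CPM (counts rescaled between libraries by edgeR's TMM factors), which covers counting error only. ELK3 itself stood at 618 and 509 counts in NC mimic cells, 493 and 505 in miR-200a cells, and 406 and 337 in cells labelled plus ELK3. The study describes the plasmid's ELK3 as lacking the intact 3′UTR of the gene, so a 3′ count need not include it and does not check the label. By other assays, the study reports that ELK3 mRNA and protein returned to the control level with its plasmid. The replicate libraries labelled miR-200a plus ELK3 stood further apart than those of the other groups, with a chi-square per degree of freedom over genes of 13.1, compared with 2.41 in the NC mimic group and 1.88 in the miR-200a group. Of the markers of the line, VIM had 4068 to 11179 counts and CD44 had 831 to 1652, whereas SPARC had at most 8. ESR1 was at 0 in all 6 libraries and PGR had at most 1 count, but ERBB2 had 99 to 232 counts, and of the claudins that such cells are said to lack CLDN4 had 589 to 1143 and CLDN7 had 123 to 416, with at most 7 for CLDN3. Among 8 smooth muscle and fibroblast markers, DES, LMOD1, COL1A2, LUM and DCN had at most 4 counts, MYH11 had 12 to 18, PDGFRB had 7 to 31 and COL1A1 had 81 to 198. The blood markers PTPRC and HBB had at most 10.

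The mature miR-200a-3p, which pairs with its targets through its seed, is shown with the seed (bases 2 to 8) in capitals, because members are described by whether their 3′UTR holds a match to it.
hsa-miR-200a-3p, RefSeq GRCh38.p14 chr1:1167916-1167937, plus strand: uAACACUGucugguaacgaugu
A match (CAGTGTT) was found in the annotated 3′UTR of 8 of the 39 tested members (20.5%) and of 19.7% of 11161 tested genes with a 3′UTR. The members were MYH10, TNS1, TNS3, GSN, MYL6, MYL12B, CALD1 and VCL. MYH10 was the member with 2 matches and each of the others had 1. The sites of the 4 of them that passed a test in some comparison are given with 7 bases on each side and the match in capitals (GENCODE release 29, GRCh38).
MYH10, chr17:8474732-8474752, minus strand: ctttggaCAGTGTTacagtga
MYH10, chr17:8474522-8474542, minus strand: aatgaatCAGTGTTaattcta
TNS1, chr2:217800198-217800218, minus strand: ttccaatCAGTGTTaagctgt
TNS3, chr7:47275367-47275387, minus strand: attcctcCAGTGTTaagctat
GSN, chr9:121332792-121332812, plus strand: aaaatgtCAGTGTTtgggaaa
The matches in MYH10, TNS1 and TNS3 were followed by an A and the match in GSN was not. A match describes the letters of the sequence and not a site of action.

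The SRF element was looked for in RefSeq promoters of 250 bases before to 50 after the gene start. A single listed start was searched for each gene, so boxes at other starts would be missed. A CArG box stood in 6 of the 38 member promoters in the table (15.8%), compared with 1.29% of all 27305 promoters, and in 5 of 36 promoters of tested members (13.9%), compared with 1.06% of 9373 promoters of tested genes. Since the genes were chosen largely as SRF targets, these shares are a description. The box was in ACTG1, ACTG2 (2 boxes), TPM4, CNN2, FLNA and FHL2, between 173 and 73 bases before the start. ACTB, MYL9, TAGLN and TNS4 had no entry. The letters CCGGAA, the core that ETS factors such as the ELK proteins recognize, were searched on both strands and stood in 22.2% of the promoters of tested members and 30.4% of those of tested genes, and among the members called in any comparison they were in TNS1, TNS3 and GSN. Promoters are shown for FLNA, the called member with a CArG box, for ACTG1, an actin with a box, and for ACTA2, the member with the largest difference, which had none in this window. The ACTA2 window stood at the outer end of the gene span, and starts inside the span were not searched. Capitals mark the box.
FLNA promoter, GRCh38.p14 chrX:154374585-154374884, minus strand: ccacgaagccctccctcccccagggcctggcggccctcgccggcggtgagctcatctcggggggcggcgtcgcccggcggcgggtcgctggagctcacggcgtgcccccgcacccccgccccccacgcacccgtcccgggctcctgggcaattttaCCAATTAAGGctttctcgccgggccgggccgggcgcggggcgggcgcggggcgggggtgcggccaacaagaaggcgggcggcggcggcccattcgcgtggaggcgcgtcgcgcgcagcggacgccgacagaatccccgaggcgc
ACTG1 promoter, GRCh38.p14 chr17:81512750-81513049, minus strand: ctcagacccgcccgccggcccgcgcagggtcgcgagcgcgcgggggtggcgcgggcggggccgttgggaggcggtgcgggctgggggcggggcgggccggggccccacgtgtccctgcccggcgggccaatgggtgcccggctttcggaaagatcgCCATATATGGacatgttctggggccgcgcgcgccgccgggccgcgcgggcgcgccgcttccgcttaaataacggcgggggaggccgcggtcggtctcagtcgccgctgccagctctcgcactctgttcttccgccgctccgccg
ACTA2 promoter, GRCh38.p14 chr10:88991288-88991587, minus strand: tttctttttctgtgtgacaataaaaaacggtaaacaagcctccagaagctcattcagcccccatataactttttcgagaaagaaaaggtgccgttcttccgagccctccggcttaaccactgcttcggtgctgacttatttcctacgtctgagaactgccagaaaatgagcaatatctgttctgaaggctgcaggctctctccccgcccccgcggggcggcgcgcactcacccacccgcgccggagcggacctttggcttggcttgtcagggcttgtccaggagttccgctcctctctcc

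With miR-200a alone, none of the 39 tested members passed the threshold (edgeR's quasi-likelihood test, Benjamini-Hochberg adjusted p under 0.05) against the NC mimic, where 0.269% of the 12650 tested genes were called, 0.213% higher and 0.0553% lower. Their median log2 fold change was 0.07, compared with -0.02 for all tested genes, and 76.9% of them lay within 0.25 of 0, as did 61.2% of tested genes. At an unadjusted p under 0.05 there were 5 members higher and 1 lower, or 15.4% of members, where the share of all tested genes was 9.24% (5.13% higher and 4.11% lower). DESeq2 called 1 member, MYH10, and 0.696% of tested genes, and limma called 0 members and 0.0316% of tested genes. The groups did not overlap for 17 members that were higher and 6 that were lower with miR-200a (43.6% and 15.4%), where the shares of all tested genes were 22.9% and 26.1%.

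With the libraries labelled plus ELK3, 5 of 39 members fell against miR-200a and none rose. ACTA2 fell 4.84-fold, GSN and TNS1 fell more than 2-fold, and MYL12A and TAGLN2 fell less. The share of members called was 12.8%, and 12.9% of all tested genes were called, 7.03% higher and 5.91% lower. Against the NC mimic, ACTA2, GSN, TNS3 and MYH10 fell and FLNA and PDLIM7 rose, 6 of 39 members (15.4%), where again 12.9% of tested genes were called, 6.92% higher and 5.95% lower. The median log2 fold change of the members was -0.19 against miR-200a and -0.08 against the NC mimic, and that of all tested genes was 0.02 and 0.01. These 2 comparisons share the libraries labelled plus ELK3. In these bulk libraries, fewer cells with a transcript and less of it per cell cannot be told apart.

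**Figure D1:**
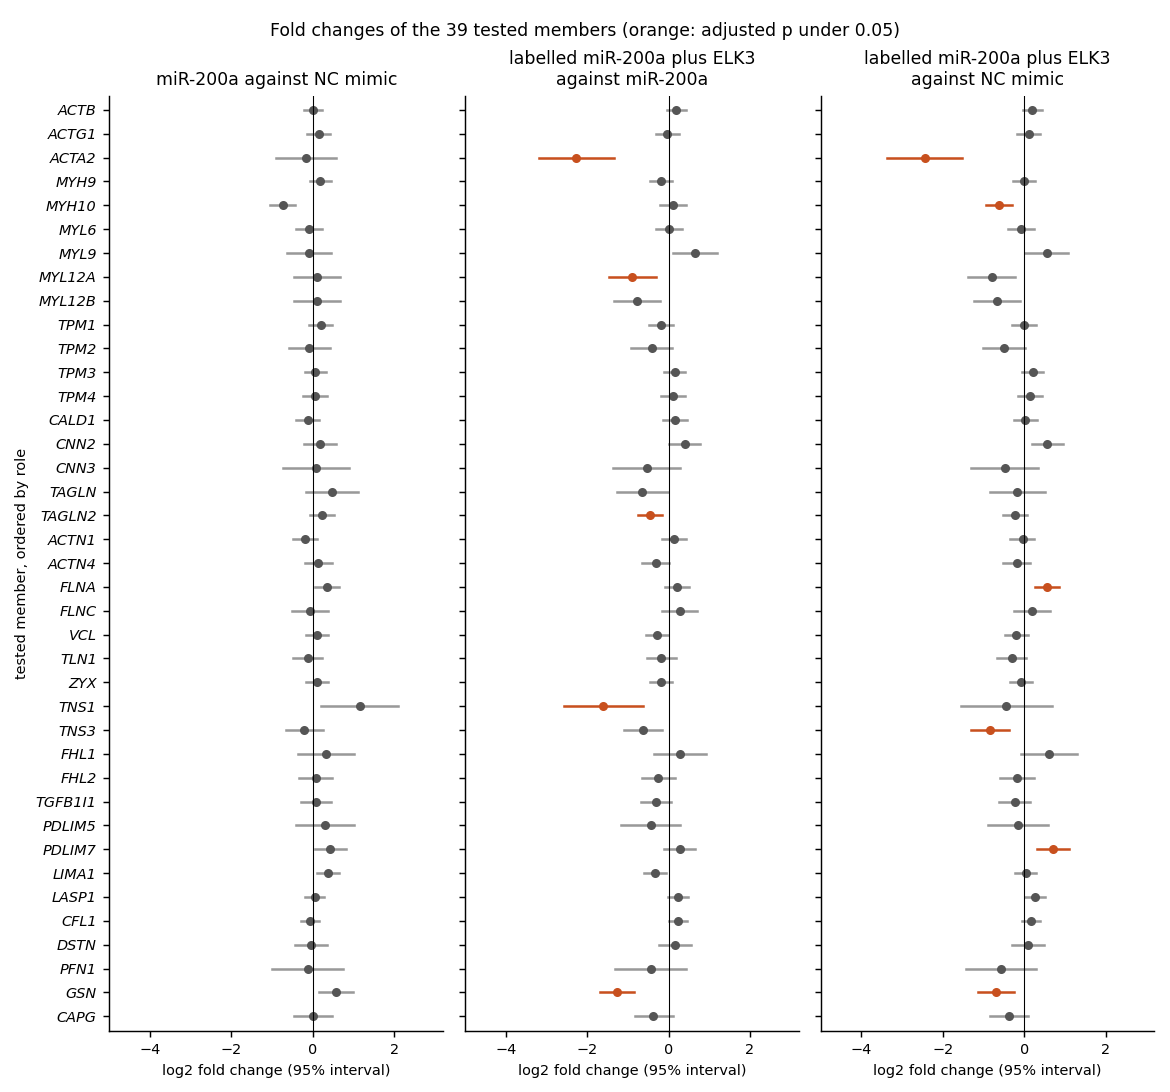
Log2 fold change of each tested member with its 95% interval (edgeR's quasi-likelihood fit) in the 3 comparisons, ordered by role, with members at an adjusted p under 0.05 in orange. The left panel holds no orange point, and ACTA2 has the largest fall in the other panels, at -2.27 and -2.44.

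The number of members called differed with the libraries in the model. The main fit held all 6 libraries and took 1 spread for each gene from the 3 groups. The comparison of miR-200a with the NC mimic therefore also used the spread of the libraries labelled plus ELK3. When the model held just the 2 groups compared, 7 members passed for miR-200a alone (17.9%, with 7.9% of tested genes called, 4.77% higher and 3.12% lower). ACTG1, FLNA, GSN, LIMA1, PDLIM7 and TAGLN2 were higher and MYH10 was lower, with log2 fold changes between 0.16 and 0.58 for the former and -0.73 for MYH10 (edgeR adjusted p from 2.28e-06 to 0.03). The same model called 2 members against miR-200a, ACTA2 and GSN, and 1 against the NC mimic, ACTA2, with 4.58% and 4.73% of tested genes called. The edgeR adjusted p of TNS1, MYL12A and TAGLN2 against miR-200a was then 0.0778 to 0.105, and that of GSN, TNS3, MYH10, FLNA and PDLIM7 against the NC mimic was 0.0654 to 0.104. Without replicate 1 of the libraries labelled plus ELK3, 7 members were called for miR-200a alone, 23 against miR-200a and 22 against the NC mimic, where 7.83%, 37.4% and 37.3% of tested genes were called. Without replicate 2 the numbers were 7, 15 and 16, and the shares were 7.91%, 22.5% and 22.7%. Leaving out either miR-200a library left 0 members called against miR-200a, where 0.387% or 0.308% of tested genes were called, and 1 against the NC mimic, where 4.69% or 4.71% were. Leaving out either NC mimic library left 2 and 0, with 4.47% or 4.53% and 0.711% or 0.719% of tested genes called. In these fits the lone library of a group is assumed to vary like the other groups.

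The actins form the filaments. ACTB and ACTG1 encode the cytoplasmic forms found in nearly every cell, and ACTA2 and ACTG2 the smooth muscle forms. ACTB stood at 6429 and 4207 counts in NC mimic cells, 6686 and 7042 in miR-200a cells, and 6716 and 6969 in cells labelled plus ELK3. Its CPM was 1400 ± 41.7, 1410 ± 33.0 and 1610 ± 33.5 (SD, n = 2 in each group), a log2 fold change of 0.20 against the NC mimic (95% interval -0.02 to 0.43, edgeR adjusted p = 0.205). ACTG1 had 11546 and 8255 counts, 13895 and 14342, and 13495 and 10562 in the same order. Its log2 fold change was 0.14 for miR-200a (interval -0.14 to 0.42, edgeR adjusted p = 0.802) and -0.03 for the libraries labelled plus ELK3 against miR-200a (interval -0.31 to 0.25, edgeR adjusted p = 0.887). Neither cytoplasmic actin passed the test in any comparison.

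ACTA2 (chr10:88935074-88991339 on GRCh38, minus strand) stood at 61 and 29 counts in NC mimic cells, 44 and 57 in miR-200a cells, and 6 and 12 in cells labelled plus ELK3. The last pair was near the floor and lay below the other 4 libraries, which overlapped. Its 2 libraries differed 1.98-fold in CPM. ACTA2 CPM was 11.5 ± 2.91, 10.4 ± 1.75 and 2.12 ± 0.989 (SD, n = 2 in each group). The fall was 4.84-fold against miR-200a (log2 fold change -2.27, interval -3.19 to -1.35, edgeR adjusted p = 0.00939) and 5.44-fold against the NC mimic (log2 fold change -2.44, interval -3.37 to -1.52, edgeR adjusted p = 0.00672). With miR-200a alone the log2 fold change was -0.17 (standard error 0.33, edgeR adjusted p = 0.938). The antisense gene ACTA2-AS1 had 60 and 31, 44 and 57, and 6 and 12 counts, within 2 counts of ACTA2 in every library. Whether the counting used strand is not given in the sources used here, so the reads of the 2 genes cannot be told apart. STAMBPL1 and FAS also overlap the ACTA2 span, and had 86 to 171 and 7 to 35 counts. ACTG2 had 0 counts in all 6 libraries. Of other genes that mark smooth muscle or related cells, DES and LMOD1 were at or near 0, MYH11 had 17 and 16, 16 and 18, and 16 and 12 counts, and PDGFRB had 31 and 21, 27 and 29, and 7 and 17, a log2 fold change of -1.02 with the plasmid against miR-200a (edgeR adjusted p = 0.147). Their part in the difference of ACTA2 was not tested.

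**Figure D2:**
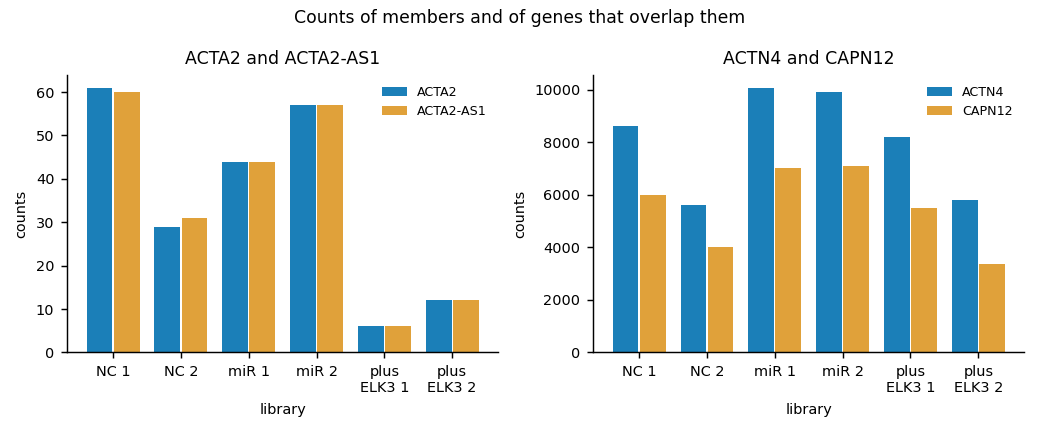
Counts of ACTA2 and of the antisense gene ACTA2-AS1 (left), and of ACTN4 and of the overlapping gene CAPN12 (right), in each of the 6 libraries. The bars of ACTA2 and ACTA2-AS1 differ by at most 2 counts, and CAPN12 follows ACTN4 at 0.585 to 0.715 of its count.

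Myosin II pulls on actin filaments. MYH9 and MYH10 are heavy chains of the non-muscle forms, and MYL6, MYL9, MYL12A and MYL12B are light chains. MYH10 (chr17:8474205-8630761, minus strand) stood at 729 and 429 counts in NC mimic cells, 418 and 462 in miR-200a cells, and 396 and 436 in cells labelled plus ELK3. On the CPM scale these were 162 and 140, 86.8 and 94.1, and 93.8 and 102, so both groups that received miR-200a lay below the NC mimic and overlapped each other. Against the NC mimic the log2 fold change was -0.74 for miR-200a (interval -1.06 to -0.43, edgeR adjusted p = 0.0715) and -0.63 with the plasmid (interval -0.94 to -0.31, edgeR adjusted p = 0.0207), the second of which passed. Between the 2 groups that received miR-200a it was 0.12 (interval -0.20 to 0.43, edgeR adjusted p = 0.615). Over the alternatives the adjusted p of the first difference ranged from 2.28e-06 to 0.92. NDEL1, which overlaps MYH10, had 0.364 to 0.608 of its counts. MYH9, the other heavy chain, had 1154 to 2289 counts and log2 fold changes of 0.18, -0.19 and 0.00 in the 3 comparisons, none of which passed.

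MYL12A (chr18:3247481-3256236, plus strand) stood at 1865 and 1494 counts in NC mimic cells, 2262 and 2426 in miR-200a cells, and 1476 and 719 in cells labelled plus ELK3. It fell by 0.89 on the log2 scale against miR-200a (interval -1.47 to -0.32, edgeR adjusted p = 0.0474) and its log2 fold change against the NC mimic was -0.80 (edgeR adjusted p = 0.0685). The last pair was below the other 4 libraries, and its 2 libraries differed 2.07-fold in CPM. MYL12B is a near-identical copy next to it, with 2211 and 1580, 2520 and 2744, and 1815 and 876 counts, and a log2 fold change of -0.77 against miR-200a (edgeR adjusted p = 0.0748). The ratio of the 2 copies stayed between 1.06 and 1.23, and how reads were divided between them is uncertain. MYL9, a light chain of smooth muscle and non-muscle myosin, had 238 and 258 counts with miR-200a and 241 and 438 with the plasmid, a log2 fold change of 0.65 (edgeR adjusted p = 0.0977). The summed CPM of the 6 chains was 1903 to 1992 in the 4 libraries without the plasmid, and 1601 and 1375 with it. That sum includes MYL12A, at 470 and 494 CPM with miR-200a and 350 and 169 with the plasmid. It also includes MYL12B, at 523 and 559 with miR-200a and 430 and 206 with the plasmid. The summed CPM of all 42 members was 17023 to 17912 without the plasmid, and 17580 and 16607 with it.

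Tropomyosins lie along the filament, and caldesmon, calponins and transgelins bind it beside them. Of the 9 tested members of this group TAGLN2 was called. TAGLN2 (chr1:159918107-159925732, minus strand) encodes transgelin-2, a filament-bundling protein. It stood at 2631 and 1503 counts in NC mimic cells, 3052 and 3086 in miR-200a cells, and 1773 and 2134 in cells labelled plus ELK3. Its CPM was 538 ± 67.5, 631 ± 3.44 and 461 ± 57.7 (SD, n = 2 in each group). The last pair lay below the miR-200a pair and overlapped the NC mimic pair. TAGLN2 fell 1.37-fold against miR-200a (log2 fold change -0.45, interval -0.75 to -0.16, edgeR adjusted p = 0.0493), and the log2 fold change against the NC mimic was -0.23 (edgeR adjusted p = 0.283). TAGLN, or SM22, the smooth muscle transgelin and a standard SRF target, had 45 and 23, 55 and 65, and 35 and 32 counts. Its log2 fold changes were 0.47, -0.64 and -0.17, with adjusted p of 0.688, 0.161 and 0.746 by edgeR. PCSK7, which overlaps TAGLN, had more counts than it in every library.

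CNN1, the smooth muscle calponin, was not tested. It had 2 and 0 counts, 2 and 5, and 0 and 1, so its group means were near or below the floor. CNN2, the calponin with a CArG box in its promoter, had 729 and 489, 929 and 838, and 823 and 1207 counts, a log2 fold change of 0.57 against the NC mimic (interval 0.19 to 0.96, edgeR adjusted p = 0.0555). CNN3 had 743 and 618, 909 and 959, and 841 and 275 counts, so that in CPM replicate 1 with the plasmid lay among the other libraries and replicate 2 below them. The 4 tropomyosins had log2 fold changes between -0.09 and 0.19 with miR-200a, between -0.41 and 0.15 with the plasmid against miR-200a, and between -0.50 and 0.21 against the NC mimic. None of them, nor CALD1, passed.

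Among the crosslinkers and adhesion proteins, FLNA rose and the tensins TNS1 and TNS3 fell. FLNA (chrX:154348524-154374638, minus strand) encodes filamin A, which joins filaments into networks. It stood at 2578 and 1509 counts in NC mimic cells, 3336 and 3276 in miR-200a cells, and 2982 and 3669 in cells labelled plus ELK3, or 574 and 492, 693 and 668, and 706 and 862 CPM. The groups did not overlap in any comparison. FLNA rose 1.47-fold against the NC mimic (log2 fold change 0.56, interval 0.26 to 0.85, edgeR adjusted p = 0.0248). For miR-200a alone the log2 fold change was 0.35 (interval 0.06 to 0.64, edgeR adjusted p = 0.458), and between the 2 groups with miR-200a it was 0.21 (edgeR adjusted p = 0.324).

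Tensins link actin to integrins at adhesions. TNS1 (chr2:217799588-218033982, minus strand), which the study names among genes of its interest, was near the floor, at 14 and 8 counts in NC mimic cells, 33 and 30 in miR-200a cells, and 6 and 12 in cells labelled plus ELK3. The miR-200a libraries lay above the other 4. TNS1 fell 3.03-fold from that level with the plasmid (log2 fold change -1.60, interval -2.57 to -0.62, edgeR adjusted p = 0.0403). With miR-200a alone the log2 fold change was 1.15 (interval 0.21 to 2.10, edgeR adjusted p = 0.44), and between the other groups it was -0.44 (edgeR adjusted p = 0.597). TNS3 (chr7:47275154-47582558, minus strand) had 131 and 94 counts, 113 and 139, and 74 and 68. It fell 1.78-fold with the plasmid against the NC mimic (log2 fold change -0.83, interval -1.30 to -0.37, edgeR adjusted p = 0.0304), and its log2 fold change against miR-200a was -0.63 (edgeR adjusted p = 0.0745). TNS4 had 1 and 1, 3 and 7, and 5 and 4 counts and was not tested.

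The remaining 6 tested members of that group, ACTN1, ACTN4, FLNC, VCL, TLN1 and ZYX, did not pass in any comparison. VCL, or vinculin, a standard SRF target, had CPM of 220 ± 3.75, 235 ± 3.27 and 193 ± 15.7 (SD, n = 2 in each group) and a log2 fold change of -0.29 with the plasmid against miR-200a (interval -0.56 to -0.02, edgeR adjusted p = 0.144). ACTN4, an alpha-actinin, had 5614 to 10067 counts. CAPN12, whose annotation overlaps that of ACTN4, had 3383 to 7096 counts that varied with it from library to library, as the bar plot of both genes shows, so whether reads of the pair were counted for both is uncertain.

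Of the 7 LIM domain proteins, which carry zinc fingers, all had log2 fold changes above 0 with miR-200a, from 0.04 to 0.43 with a median of 0.30, and none was called. Of all 12650 tested genes 5973 were above 0. PDLIM7 (chr5:177483394-177497606, minus strand), a scaffold of stress fibres, stood at 225 and 147 counts in NC mimic cells, 323 and 320 in miR-200a cells, and 288 and 389 in cells labelled plus ELK3. Its CPM was 49.0 ± 1.51, 66.1 ± 1.31 and 79.8 ± 16.4 (SD, n = 2 in each group), with no overlap between groups. It rose 1.63-fold with the plasmid against the NC mimic (log2 fold change 0.70, interval 0.31 to 1.09, edgeR adjusted p = 0.0285), and the log2 fold change was 0.43 for miR-200a alone (edgeR adjusted p = 0.491). LIMA1, or eplin, which stabilizes filaments at junctions, had CPM of 209 ± 12.9, 270 ± 0.382 and 214 ± 7.18 (SD, n = 2 in each group), a log2 fold change of 0.37 with miR-200a (edgeR adjusted p = 0.34) and of -0.33 with the plasmid against miR-200a (edgeR adjusted p = 0.0898).

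Of the turnover proteins, GSN was called. GSN (chr9:121207794-121332843, plus strand) encodes gelsolin, which severs and caps filaments. It stood at 288 and 179 counts in NC mimic cells, 421 and 464 in miR-200a cells, and 191 and 130 in cells labelled plus ELK3, or 64.1 and 58.4, 87.4 and 94.5, and 45.2 and 30.6 CPM. The miR-200a pair was the highest and the last pair the lowest, with no overlap. GSN fell 2.40-fold against miR-200a (log2 fold change -1.26, interval -1.69 to -0.84, edgeR adjusted p = 0.00469) and 1.62-fold against the NC mimic (log2 fold change -0.70, interval -1.13 to -0.26, edgeR adjusted p = 0.0431). For miR-200a alone the log2 fold change was 0.57 (interval 0.15 to 0.98, edgeR adjusted p = 0.356). GSN-AS1 and RAB14 overlap GSN and had 11 to 44 and 571 to 1023 counts. CFL1 and DSTN, which depolymerize filaments, CAPG, a capping protein, and PFN1, or profilin, which supplies monomers, did not pass. CFL1 stayed within 1500 to 1860 CPM.

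**Figure D3:**
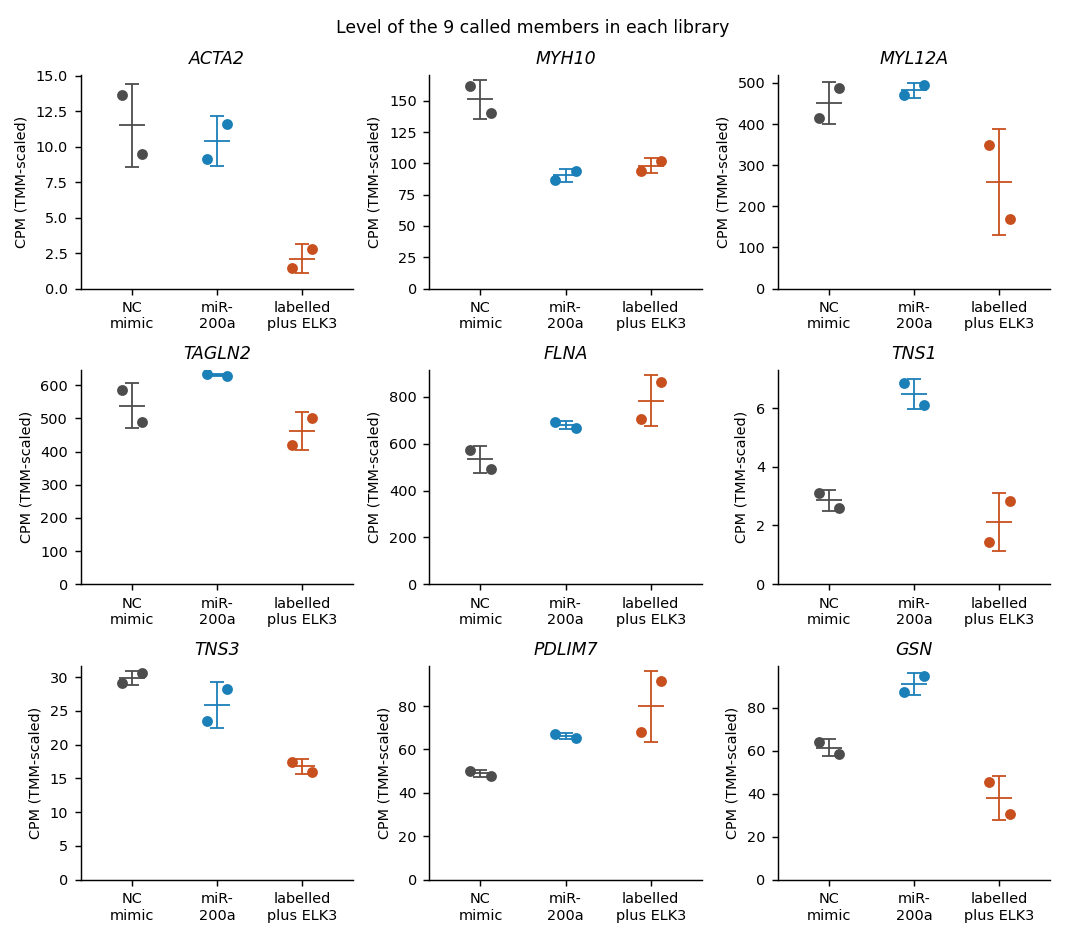
CPM of the 9 members called in at least 1 comparison, 1 point for each library, with the mean and SD (n = 2) of each group. ACTA2 is lowest in the libraries labelled plus ELK3, GSN and TNS1 are highest with miR-200a, and FLNA and PDLIM7 are lowest with the NC mimic.

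Several members differed between the replicate libraries labelled miR-200a plus ELK3. PFN1 had 3982 and 1175 counts there, a 3.42-fold difference in CPM, and 2735 to 4141 in the other 4 libraries. CNN3 had 841 and 275 counts (3.08-fold), PDLIM5 had 190 and 78 (2.45-fold), MYL12B had 1815 and 876 (2.09-fold) and MYL12A had 1476 and 719 (2.07-fold), and in each of these genes replicate 2 was the lower. Of 35 members with a mean of at least 100 counts, these 5 (14.3%) differed more than 2-fold in that group and 0 in the other groups. Of all 6885 genes with such a mean, 249 (3.62%) did in that group, 234 of them lower in replicate 2, compared with 4 in the NC mimic group and 0 in the miR-200a group. Of the 5 members MYL12A was called in the comparison with miR-200a. Without replicate 1, PFN1, CNN3, PDLIM5, MYL12A and MYL12B were all called lower against miR-200a, and without replicate 2 MYL12A and MYL12B were.

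**Figure D4:**
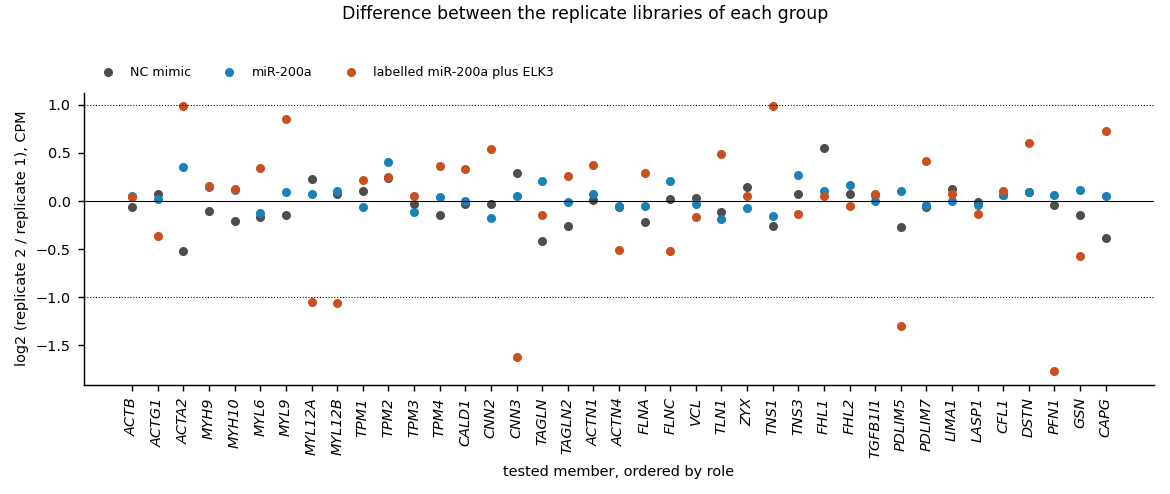
Log2 ratio of CPM in replicate 2 to replicate 1 for each tested member in each group, ordered by role, with dotted lines at a 2-fold difference. PFN1, CNN3, PDLIM5, MYL12A and MYL12B lie below the lower line in the libraries labelled plus ELK3, and no point of the other groups reaches a line.

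The same comparisons were made for other genes of the pathway, not among the 42, in lists that partly share genes (SRF is in 3 of them). SRF stood at 634 and 517 counts in NC mimic cells, 829 and 725 in miR-200a cells, and 1034 and 1146 in cells labelled plus ELK3. It rose with the plasmid by a log2 fold change of 0.68 against miR-200a (edgeR adjusted p = 0.0153) and 0.73 against the NC mimic (edgeR adjusted p = 0.0114). The MRTF genes, listed as MKL1 and MKL2, had 16 to 33 and 11 to 36 counts and log2 fold changes of 0.30 and 0.78 with the plasmid against miR-200a, with adjusted p of 0.615 and 0.206 by edgeR. Among the TCFs, the 3′ count of ELK3, which need not include the plasmid's transcript, fell against the NC mimic (log2 fold change -0.79, edgeR adjusted p = 0.0117). In that comparison ELK1, with 295 and 175, 293 and 327, and 263 and 185 counts, and ELK4, with 154 and 118, 188 and 182, and 189 and 135, had log2 fold changes of -0.22 and 0.08 (edgeR adjusted p = 0.478 and 0.835). MYOCD had 0 counts and FLI1 had at most 3, and neither was tested.

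Of 27 tested genes among 34 other SRF-MRTF targets, 2 rose and 6 fell with the plasmid against miR-200a and 1 rose and 5 fell against the NC mimic, with median log2 fold changes of -0.34 and -0.33. Of all tested genes, 7.03% rose and 5.91% fell against miR-200a, and 6.92% and 5.95% against the NC mimic, which is the background for each list. JUNB, an AP-1 subunit, had 1837 and 1271, 1589 and 1645, and 662 and 419 counts and fell against the NC mimic (log2 fold change -1.69, edgeR adjusted p = 0.000913). CYR61, which encodes a secreted matricellular protein, had 9205 and 6250, 10399 and 10113, and 4814 and 1928 counts, so its replicates labelled plus ELK3 lay more than 2-fold apart, and fell against miR-200a (log2 fold change -1.41, edgeR adjusted p = 0.0187). THBS1, which encodes another, had 375 and 235, 394 and 379, and 189 and 134 counts and fell against miR-200a (log2 fold change -1.06, edgeR adjusted p = 0.00789). Of 12 tested serum-response genes of the TCF arm, 1 rose and 7 fell against miR-200a and 1 rose and 8 fell against the NC mimic, and the median log2 fold change was -1.43 in both comparisons, compared with -0.19 and -0.08 for the members. FOS, an immediate-early transcription factor, had 550 and 494, 583 and 615, and 184 and 54 counts, also more than 2-fold apart in the last group, and fell against miR-200a (log2 fold change -2.13, edgeR adjusted p = 0.00927). NR4A1, another, had 101 and 90, 135 and 123, and 25 and 22 counts and fell against miR-200a (log2 fold change -2.25, edgeR adjusted p = 0.00177). EGR2, also such a factor, with 28 and 21, 18 and 15, and 1 and 8 counts, fell against the NC mimic (log2 fold change -2.59, edgeR adjusted p = 0.0241). The gene of this list that rose was SRF. The difference between the lists was not tested, and the lists were chosen with earlier results of these data known.

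Of 17 genes for branched filaments, ARPC5L, a subunit of the Arp2/3 complex with 461 and 282, 442 and 406, and 633 and 738 counts, rose against miR-200a (log2 fold change 0.89, edgeR adjusted p = 0.00622) and against the NC mimic (log2 fold change 0.73, edgeR adjusted p = 0.012), and WASF2, an activator of that complex with 1024 and 705, 939 and 848, and 539 and 726 counts, fell against the NC mimic (log2 fold change -0.62, edgeR adjusted p = 0.0293). Of 12 tested genes among 15 for monomer binding and capping, CFL2, the muscle cofilin, with 238 and 146, 347 and 352, and 215 and 206 counts, fell against miR-200a (log2 fold change -0.53, edgeR adjusted p = 0.0427), and none was called against the NC mimic. With miR-200a alone, EGR1 was the gene of all these lists that was called, with a log2 fold change of -0.75 (edgeR adjusted p = 0.0289).

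**Figure D5:**
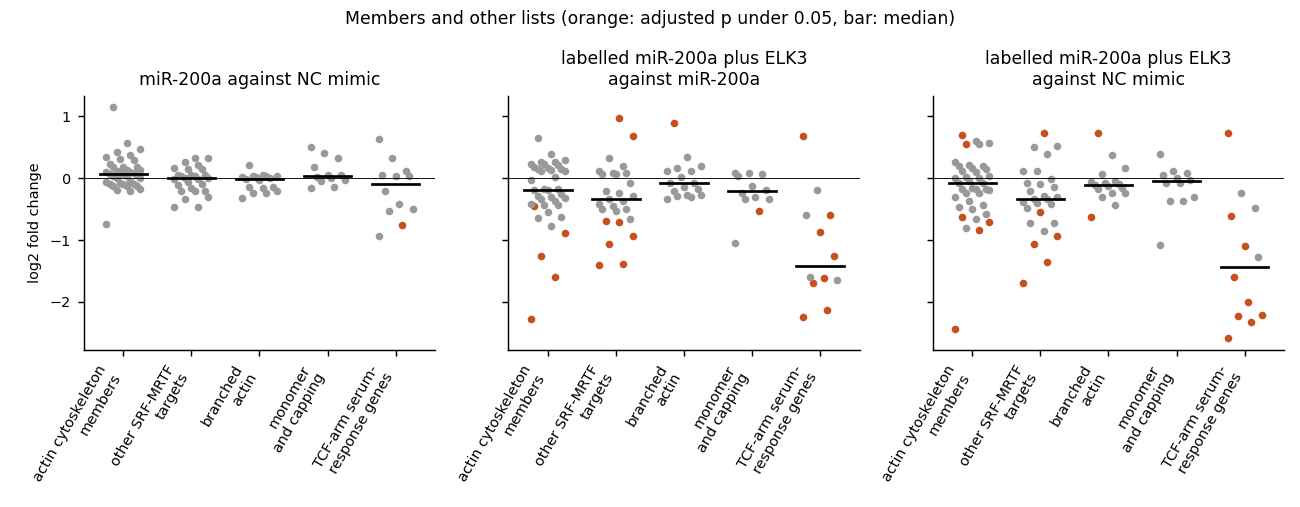
Log2 fold change of each tested gene in the members and in 4 other lists for the 3 comparisons, with genes at an adjusted p under 0.05 in orange and the median of each list as a bar. In the comparisons with the libraries labelled plus ELK3, the serum-response list has a median of -1.43 and the members have -0.19 and -0.08. The members and lists were chosen with earlier results of these data known.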

How the data were processed

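RNA of MDA-MB-231 cells was measured in 6 libraries, 2 in each of 3 groups taken from the sample labels. What the authors deposited are raw counts of reads for gene symbols, which sum to 3055915 to 4868004 in a library and had not been normalized. The submitters' processing notes name Bowtie2, edgeR and hg19. The paper names ExDEGA. The counting program, its annotation and its use of strand are not given in the sources used here. Precision is limited by depth, with 3 counts as the floor.

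Of 25737 lines, those that share a symbol (286 symbols, no member) were summed. Tests used edgeR 4.0.16 under R 4.3.3 (TMM, filterByExpr with a minimum count of 10, quasi-likelihood test, 3 residual degrees of freedom, all 6 libraries in 1 model), with Benjamini-Hochberg adjustment over 12650 genes and a threshold of 0.05. Intervals are 95%. Alternatives were DESeq2 1.42.0, limma 3.58.1 on quantile-normalized log2(count + 1), upper-quartile or total scaling, no filter or 10 counts in each library, the largest line of a symbol, a model of the 2 compared groups, a replicate block, and each library left out. The fit was tested on simulated data that had the same spread in every group. That test cannot show how the fit handles the wider spread of the libraries labelled plus ELK3.

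Named with their counts were members called in any comparison, members not tested, ACTB, ACTG1, ACTA2, TAGLN, CNN1, TNS1 and GSN, and of each other list the 3 called genes with the largest change, with SRF, the MRTF genes and the TCFs. Other members, such as MYL9, CNN2, VCL, LIMA1 and PFN1, are examples chosen after their values were seen. The members and lists were chosen with earlier results of these data known. Promoters and the miRNA came from RefSeq (GRCh38.p14), and positions and 3′UTRs from GENCODE release 29 (GRCh38). Counts were not realigned. One of the pathway lists is not reported here.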

Additional observations from a re-analysis of the deposited data

How the results depend on the processing

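The number of members called for miR-200a alone was 0, and it was 1 by DESeq2 (0.696% of tested genes called), 1 with no filter on low counts (1.23%), 7 when the model held just the 2 groups compared, and 0 to 7 with a library left out. Against miR-200a, the 5 members called in the libraries labelled plus ELK3 became 10 with no filter (13.4% of tested genes called), 3 where every library needed 10 counts (13.8%, with ACTA2 and TNS1 not tested), 2 in the model of 2 groups, 0 by limma (0.846%) and 0 to 23 with a library left out. Against the NC mimic, the 6 became 12 with no filter (13.5%), 1 in the model of 2 groups, 1 by limma (3.09%) and 0 to 22 with a library left out. The counts of all called genes moved too, from 1637 to 579 against miR-200a and from 1629 to 598 against the NC mimic in the model of 2 groups, and from 34 to 999 for miR-200a alone. The other scalings kept the counts within 1.5 times. Of 346 values of single named members under the alternatives, 261 kept their side of the threshold, 64 lost it, 21 gained it and 0 changed direction. The 64 all belong to differences called in the main fit. The 261 also hold differences not called there that stayed uncalled, so the pooled share does not measure how stable the calls were. A named member was followed only in comparisons where it was called or its log2 fold change was at least 0.25 in size. Smaller changes, such as those of ACTB and ACTG1, are not among these values, so changes of direction there were not counted.

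The replicate numbers are shared by the groups, but same-numbered libraries did not deviate together (correlations of -0.00215, -0.037 and -0.116 across genes). With the replicate block, 0 members were called for miR-200a, 2 against miR-200a (ACTA2 and GSN) and 4 against the NC mimic (ACTA2, MYH10, FLNA and PDLIM7), and 0.103%, 9.15% and 9.25% of tested genes were. With the numbers of the libraries labelled plus ELK3 crossed, chosen after seeing the data, the counts were 0, 6 and 8, with 0.174%, 13% and 13.1% of tested genes called. Where a call was lost, the cause was not tested. At these depths, members at or near the floor in some libraries (CNN1, TNS4, TNS1) could not show a small difference. ACTA2 was near the floor in the libraries labelled plus ELK3, at 6 and 12 counts, so the size of its fall is uncertain.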

Other observations

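TMSB4X, which encodes thymosin beta-4, the main protein that holds actin monomers, is no member but showed a like difference between replicates. It stood at 10778 and 7879 counts in NC mimic cells, 11668 and 11984 in miR-200a cells, and 7670 and 2271 in cells labelled plus ELK3. Its log2 fold change against miR-200a was -1.05 (standard error 0.39, edgeR adjusted p = 0.104). TMSB10, its close relative, had 8483 and 7460 counts in those 2 libraries and a log2 fold change of -0.34 (edgeR adjusted p = 0.0731). Both genes were singled out after their values had been seen.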
